A study of Homo sapiens with 18 samples.

Results

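The comparison is of SH-SY5Y cells given beta-endorphin with the same cells given water, and it uses 6 of the 18 RNA-seq libraries of the study: 3 beta-endorphin libraries and 3 water libraries, called Control. They were chosen by their labels, with earlier results of these data known. Each beta-endorphin library was set against the Control library that carries the same library code. This gave pairs 1, 2 and 3, numbered as the replicates are in the labels. The code recurs across treatments, and the labels do not say what it stands for. Every library comes from the one established human line SH-SY5Y, a neuroblastoma, given as wild-type in genotype. All cells, the water group included, had first been differentiated with all-trans retinoic acid (10 µM, 7 days), and then received beta-endorphin (200 nM) or water for 15 min. The other 12 libraries, used only as a frame, received morphine (193 nM), metamorphine (169 nM), TRV130 (200 nM) or naloxone (200 nM) for the same time. Whether the libraries of a group are separate cultures is not stated in the labels, so a p-value reflects spread among libraries that may be only technical. The table held raw counts for 58735 genes, of which 23231 were abundant enough to test. Totals were 27800101, 22391264 and 24673929 counts in beta-endorphin libraries 1, 2 and 3, against 25465814, 22455473 and 24126549 counts in Control libraries 1, 2 and 3. Values below are always given in that order of pairs.

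Beta-endorphin is an opioid peptide cut from proopiomelanocortin, the product of POMC, and it binds the mu and delta opioid receptors. These receptors act through Gi and Go proteins, which inhibit adenylyl cyclase and so lower cAMP, open GIRK potassium channels, close voltage-gated calcium channels and can activate the MAP kinase pathway. Early response genes such as FOS and EGR1 are transcribed within minutes of such signals, which makes them the usual readout of a short treatment. The mRNAs of ribosomal proteins are long-lived, and their translation is regulated more than their amount.

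The cells carried the noradrenergic and neuronal transcripts of this line. DBH, the enzyme that makes noradrenaline, had 1719, 2039 and 1154 CPM (scaled by TMM) in beta-endorphin libraries, against 2003, 1845 and 923 CPM in Control libraries. It did not separate the groups. Control 1 stood apart from the other 17: of 3647 coding genes with a median of 0 counts over the series, it held 20888 reads, against 276 to 3074 reads in each other library. The first 2 principal components took 48.1% and 28.5% of the variance. On the first, the code of pair 2 lay below that of pair 3 for every treatment that has both, while the code of pair 1 had no fixed place. Control 1 lay farthest out on both components. Mitochondrially encoded RNA took 6.15%, 10.5% and 7.36% of counts in beta-endorphin libraries and 13.3%, 15.7% and 5.81% in Control libraries. Each result below is therefore given pair by pair.

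No gene passed the test of beta-endorphin against Control. Of 23231 genes, 0 (0%) had an adjusted p under 0.05 in edgeR's quasi-likelihood test with Benjamini-Hochberg adjustment, and the smallest adjusted p was 0.513. At an unadjusted p under 0.05 there were 2198 genes (9.46%), of which 920 (3.96%) were higher with beta-endorphin and 1278 (5.5%) were lower. That count was 490 without Control 1, 5009 without Control 2, 4852 without Control 3, and 563 with the 6 libraries alone, each with 0 genes called. DESeq2 called 1 gene (0.0043%), the unnamed transcript ENSG00000268230, which had 27.6, 27.5 and 27.8 CPM with beta-endorphin, against 43.0, 43.5 and 37.4 CPM in Control. With the library code as a term of the model, DESeq2 called 549 genes (2.36%), 403 of them lower, and 510 of the 549 shared an adjusted p of 0.0494, just under the threshold. All 549 averaged 10 CPM or more in the 6 libraries, as 12001 of the 23231 tested genes did. The share called at that level was therefore above the 2.36% given beside gene lists below. Without Control 1 the same DESeq2 fit called 8 genes (0.0344%), none of which was among the 549. The 95% interval of a log2 fold change, before adjustment, reached 0.50 to each side at the median. That median is over 11980 genes averaging 10 CPM or more in the 18 libraries. Smaller differences were mostly not detectable at this depth and spread. After adjustment over 23231 genes larger ones were not called either, such as CNTN1 (0.86 ± 0.21 SE) and LSR (-1.12 ± 0.26 SE), described below.

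Within the pairs, many genes lay to the same side without passing a test. Beta-endorphin was above Control in all 3 pairs for 5307 genes (22.8% of those tested) and below it in all 3 for 5768 genes (24.8%), while 12156 genes were mixed. In bulk RNA, fewer cells of a kind and less RNA per cell cannot be told apart. Without pair 1, 6537 genes were higher and 7328 were lower in both remaining pairs. All 3 beta-endorphin libraries lay above all 3 Control libraries for 1407 genes (6.06%) and below them for 1049 genes (4.52%). The size of the differences came mostly from 1 pair. The median absolute log2 difference was 0.61 in pair 1, 0.24 in pair 2 and 0.25 in pair 3. Among the 12001 genes averaging 10 CPM or more in the 6 libraries, 15.0% differed by at least 2-fold in pair 1, against 0.217% in pair 2 and 0.233% in pair 3. Across those genes the differences of pairs 1 and 2 had a Pearson r of 0.56, those of pairs 1 and 3 an r of 0.62, and those of pairs 2 and 3 an r of 0.38. The pairs share no library, but they share gene length and base composition, which are described below, and genes are not independent replicates.

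**Figure D1:**
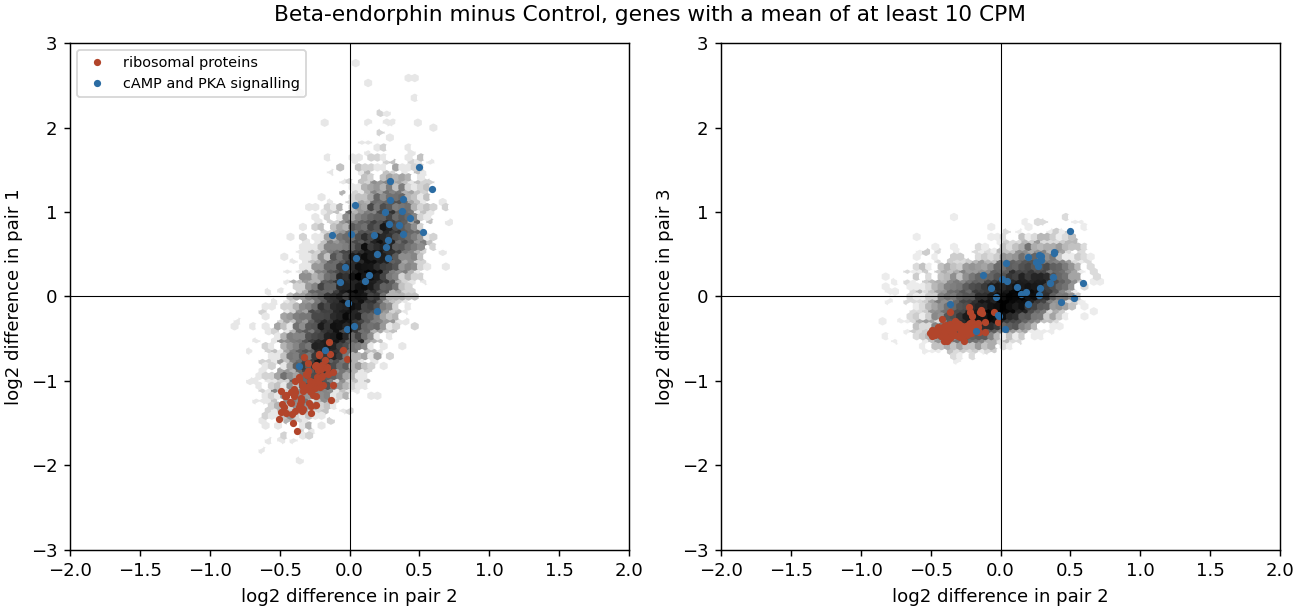
Log2 difference of beta-endorphin minus Control in pair 1 (left panel) and pair 3 (right panel) against that in pair 2, for 12001 genes averaging 10 CPM or more. Darker hexagons hold more genes and 49 genes lie beyond the axes; ribosomal protein genes (red) sit in the lower left of both panels, and most cAMP and PKA genes (blue) sit to the upper right.

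The receptors themselves did not separate the groups. OPRM1, the mu opioid receptor, had 12.2, 15.8 and 8.19 CPM with beta-endorphin, against 5.78, 19.3 and 4.93 CPM in Control. It was therefore above Control in pairs 1 and 3 and below it in pair 2, and its log2 fold change was 0.27 ± 0.57 (SE, n = 3 libraries a group, edgeR adjusted p = 0.850). OPRD1, the delta opioid receptor, had 69.2, 110.4 and 73.3 CPM with beta-endorphin, against 67.1, 185 and 43.6 CPM in Control. Its pairs also split, with log2 differences of 0.04, -0.75 and 0.75. OPRL1, the nociceptin receptor, which does not bind beta-endorphin with high affinity, had 13.98, 19.7 and 20.9 CPM with beta-endorphin, against 13.6, 15.9 and 17.6 CPM in Control. OPRL1 was higher in all 3 pairs, but the groups overlapped and the log2 fold change was 0.21 ± 0.19 (SE). OPRK1, the kappa receptor, had 0, 0 and 1 counts with beta-endorphin and 7, 0 and 0 counts in Control, too few to test. POMC had 1, 3 and 1 counts with beta-endorphin and 13, 0 and 0 counts in Control, so the precursor of the ligand was at or near 0 outside Control 1. The precursor genes PENK, PDYN and PNOC were likewise untested, with at most 1 count in any beta-endorphin library and at most 16 in any Control library.

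Among the transducers, 15 of 22 tested G protein subunit genes had a higher fitted value with beta-endorphin and 7 a lower one, beside 46.4% higher and 53.6% lower over all tested genes, with a median log2 fold change of 0.22, beside -0.04 for all tested genes. The medians within the pairs were 0.52, 0.11 and 0.00, and the fitted median was 0.040 without Control 1. GNA13, the G13 alpha subunit that acts on RhoA, had 115, 94.0 and 119 CPM with beta-endorphin, against 56.7, 70.0 and 111 CPM in Control. It was higher in every pair, but Control 3 lay within the beta-endorphin range. GNB4, a beta subunit, had 21.1, 21.01 and 25.8 CPM with beta-endorphin, against 12.6, 15.1 and 23.5 CPM in Control, and the groups overlapped. Of 20 tested genes for RGS proteins, receptor kinases and arrestins, which end receptor signalling, 8 were higher and 12 lower, with a median of -0.07. RGS17, which speeds the hydrolysis of GTP on Gi-type subunits, had 15.0, 16.3 and 16.6 CPM with beta-endorphin, against 11.01, 12.7 and 14.9 CPM in Control. Its groups did not overlap, but it did not pass edgeR's test, with a log2 fold change of 0.31 ± 0.15 (SE, edgeR adjusted p = 0.513). RGS10 went the other way, with 0.928, 0.292 and 1.09 CPM with beta-endorphin, against 2.89, 0.664 and 2.72 CPM in Control. It was lower in every pair on few counts, and its groups overlapped. Of the 20 tested genes, 1 (RGS17) lay above Control without overlap, beside 6.06% of all genes. Below Control without overlap lay 1 gene, which was not RGS10, beside 4.52% of all genes.

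None of the effector channel genes passed edgeR's test. KCNJ9, a GIRK subunit, had 7.04, 8.23 and 6.30 CPM with beta-endorphin, against 5.10, 6.29 and 5.19 CPM in Control. The 2 groups met without overlapping, and the log2 fold change was 0.38 ± 0.22 (SE, edgeR adjusted p = 0.521). It was the highest of 3 tested GIRK genes, of which 2 were higher and 1 lower, the lowest at -0.67. Only 1 of the 3 lay above Control without overlap, beside 6.06% of all genes. Their median of 0.35 was 0.034 without Control 1. Of 13 tested voltage-gated calcium channel genes, 9 were higher and 4 lower, with a median of 0.13 that was -0.12 without Control 3 and -0.027 without beta-endorphin 2. CACNA2D1, an auxiliary subunit, had 73.9, 109 and 99.0 CPM with beta-endorphin, against 51.3, 75.5 and 86.5 CPM in Control, with overlap. CACNA1A, the pore of the P/Q-type channel, showed how 1 library could set a fold change. It had 2, 5 and 0 counts with beta-endorphin and 276, 1 and 0 counts in Control, and its fitted log2 fold change of -5.45 rested on Control 1.

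The cAMP and PKA genes lay mostly higher, although none passed edgeR's test and DESeq2 with the library code called 3 of them, beside 2.36% of all genes. Of 39 tested genes, 30 were higher and 9 lower with beta-endorphin, at a median log2 fold change of 0.29, and 22 of the 39 were higher in all 3 pairs, beside 22.8% of all genes. Its medians were 0.51, 0.18 and 0.18 in the pairs, and 0.14 in the fit without Control 1. The summed level of the list was 2343, 2517 and 2159 CPM in beta-endorphin libraries, against 1427, 2093 and 1878 CPM in Control libraries, so the sums did not overlap. Sums over a list, here and below, are CPM of the total count, before TMM scaling. In the other 12 libraries the sum ran from 1541 to 2498 CPM, with a median of 2172, and 2 of the 3 Control sums and 2 of the 3 beta-endorphin sums lay inside that range. The direction was shared by the other ligands. By median log2 level relative to the 18 libraries, each of the 12 lay above the Control library of its code. Naloxone, for one, had 0.03, 0.13 and -0.05, against -0.51, 0.05 and -0.16 in Control. The leading members were anchoring proteins and a regulatory subunit of PKA. AKAP6, which tethers PKA at the nuclear envelope, had 21.6, 22.3 and 19.7 CPM with beta-endorphin, against 9.66, 17.04 and 13.7 CPM in Control. Every beta-endorphin library lay above every Control library, with a log2 fold change of 0.65 ± 0.22 (SE, edgeR adjusted p = 0.513). AKAP12, also called gravin, had 39.4, 33.9 and 28.3 CPM with beta-endorphin, against 15.3, 27.7 and 20.9 CPM in Control. AKAP11 had 62.6, 74.4 and 63.8 CPM with beta-endorphin, against 26.0, 49.4 and 57.2 CPM in Control. PRKAR2A, a regulatory subunit that holds the kinase inactive, had 35.8, 33.3 and 38.3 CPM with beta-endorphin, against 17.7, 25.7 and 32.7 CPM in Control. None of these 4 genes overlapped between groups, which their choice by smallest p favours, and in each of them Control 1 was the lowest of the 6 libraries. Of the 39 tested genes, 5 lay above Control without overlap, beside 6.06% of all genes, and 0 lay below it, beside 4.52%.

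**Figure D2:**
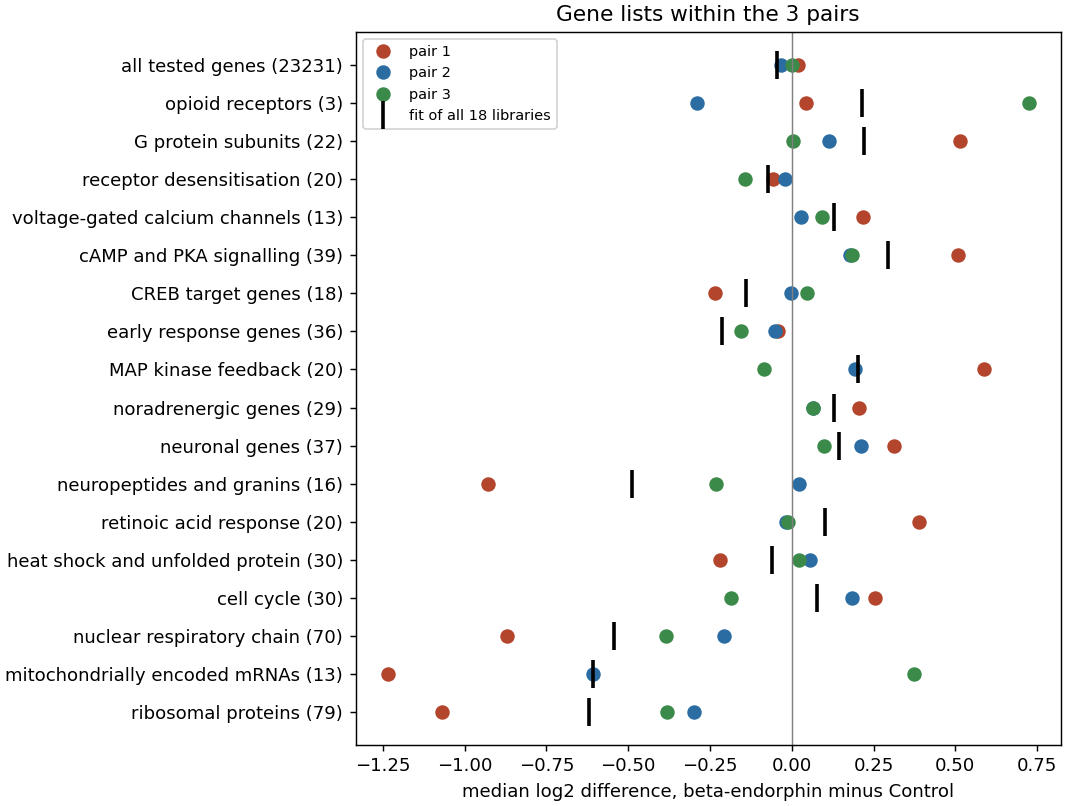
Median log2 difference of beta-endorphin minus Control for gene lists (number of tested genes in brackets), as dots for each pair and a black bar for the fit of all 18 libraries. Ribosomal protein and respiratory chain genes lie below 0 in all 3 pairs, cAMP and PKA genes above it, and mitochondrially encoded mRNAs lie at -1.23 and -0.61 in pairs 1 and 2 but at 0.37 in pair 3.

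The early response genes, the targets that a 15 min treatment would be read from, gave no common direction. Of 36 tested genes, 15 were higher and 21 lower, with a median log2 fold change of -0.21 and pair medians of -0.04, -0.05 and -0.16. FOS, a subunit of the AP-1 factor, is driven by a cAMP response element and a TATA box, and its promoter is shown because it is the standard target of the pathway. The stretch runs from 100 bases before the start to 20 bases from it (RefSeq, GRCh38.p14, chr14:75278728-75278847, plus strand), with TGACG and TATAAA in capitals.
FOS: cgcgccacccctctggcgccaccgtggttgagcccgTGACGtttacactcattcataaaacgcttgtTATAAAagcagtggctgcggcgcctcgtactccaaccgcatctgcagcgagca
On either strand of the 300-base promoters, TGACG was present for 19 of 31 early response genes with a RefSeq entry (61.3%) and for 28.4% of 27305 genes. It was also present for 30 of 63 ribosomal protein genes (47.6%), so its excess was not particular to early response genes. TATAAA was present for 25.8% of the early response genes and 13.99% of all genes. These are matches of letters and do not show binding. FOS itself had 159.5, 294 and 332 CPM with beta-endorphin, against 169, 408 and 465 CPM in Control. It was lower in every pair, by 0.09, 0.47 and 0.49 on the log2 scale. In both groups its lowest value was in pair 1. The log2 fold change of FOS was -0.41 ± 0.39 (SE, edgeR adjusted p = 0.655). EGR1, a zinc finger factor of the same response, had 705, 1043 and 828 CPM with beta-endorphin, against 282, 926 and 812 CPM in Control. Its pair differences were 1.32, 0.17 and 0.03, so only pair 1 differed by much. NR4A1, an orphan nuclear receptor and CREB target, had 33.2, 44.8 and 30.6 CPM with beta-endorphin, against 39.8, 77.8 and 24.3 CPM in Control, and its pairs did not share a direction. EGR2 had 2.51, 3.13 and 3.19 CPM with beta-endorphin, against 0.993, 2.52 and 1.51 CPM in Control, higher in each pair with overlap. IER5L was 1 of 2 members whose beta-endorphin libraries all lay below Control, beside 4.52% of all genes, with 58.5, 65.3 and 58.6 CPM with beta-endorphin, against 121, 73.2 and 114 CPM in Control. The other was PPP1R15A, a phosphatase subunit of the stress response, with 45.1, 35.8 and 45.03 CPM with beta-endorphin, against 49.6, 46.9 and 58.1 CPM in Control. SRF, a factor that drives early genes, was the 1 member that lay above it, beside 6.06% of all genes, with 46.8, 43.2 and 44.2 CPM with beta-endorphin, against 36.96, 42.23 and 42.25 CPM in Control. The CREB target list, which shares members with the early response list, split into 5 higher and 13 lower of 18, with a median of -0.14.

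Negative feedback genes of the MAP kinase pathway leaned upward. Of 20 tested, 14 were higher and 6 lower, with a median of 0.20 pair medians of 0.59, 0.19 and -0.08, and a fitted median of 0.033 without Control 1. ETV5, a transcription factor that ERK signalling induces, had 62.0, 53.8 and 60.6 CPM with beta-endorphin, against 38.2, 42.5 and 52.7 CPM in Control. Its groups did not overlap, and its log2 fold change was 0.40 ± 0.16 (SE). Of the 20 tested, 3 lay above Control without overlap, beside 6.06% of all genes, and 0 below it, beside 4.52%. SPRED2, an inhibitor of Ras-to-Raf signalling, had 132, 122 and 115 CPM with beta-endorphin, against 52.9, 106 and 111 CPM in Control, and in pair 3 the difference was 0.05. DUSP4, a phosphatase of ERK and JNK, had 105, 83.8 and 100.1 CPM with beta-endorphin, against 60.5, 67.7 and 89.2 CPM in Control, with overlap. Pair 3 therefore showed little of what pair 1 showed for this list.

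The ribosomal protein genes lay lower with beta-endorphin in every pair, although none passed edgeR's test. DESeq2 with the library code called 9 of them among its 549, beside 2.36% of all genes, and 0 of the 549 were called without Control 1. All 79 were tested, and all 79 were lower with beta-endorphin in the fit and in each of the 3 pairs, beside 24.8% of all genes that were lower in all 3. The median log2 fold change was -0.62, and the pair medians were -1.07, -0.30 and -0.38, with a fitted median of -0.41 without Control 1, so the direction was the same without Control 1 and the size was largest in the pair that holds it. No member had non-overlapping groups, beside 4.52% of all genes that lay lower without overlap, and none had an unadjusted p under 0.05, beside 9.46% of all genes. Their mRNAs begin with a short pyrimidine run, the 5′ terminal oligopyrimidine motif, which couples their translation to growth signals. Since they lay lower together, 3 of the 4 members with the smallest p are shown from 100 bases before the start to 20 bases from it (RefSeq, GRCh38.p14), with the pyrimidine run at the start, and TGACGTCA (the letters of a cAMP response element) and an upstream CTTTCC in RPL18, in capitals.
RPL36: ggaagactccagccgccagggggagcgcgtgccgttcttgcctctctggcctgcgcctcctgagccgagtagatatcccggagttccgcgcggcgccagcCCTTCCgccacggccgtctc
RPL29: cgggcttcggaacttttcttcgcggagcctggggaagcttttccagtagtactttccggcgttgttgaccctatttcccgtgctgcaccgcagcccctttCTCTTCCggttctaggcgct
RPL18: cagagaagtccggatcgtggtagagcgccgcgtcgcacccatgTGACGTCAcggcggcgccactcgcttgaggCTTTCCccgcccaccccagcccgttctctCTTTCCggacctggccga
They lie at chr19:5690195-5690314 on the plus strand (RPL36), chr3:51995876-51995995 on the minus strand (RPL29) and chr19:48619159-48619278 on the minus strand (RPL18). In the 30 bases around the start (10 before it and 20 from it), the sense strand held CTTTC in 34 of 63 ribosomal protein genes with a RefSeq entry (54.0%), against 5.29% of 27305 genes, and CTTCC in 39.7%, against 8.73%. Counting either strand, the shares were 54.0% against 9.04% for CTTTC and 41.3% against 16.4% for CTTCC. A promoter can hold both. On either strand of the 300-base promoters, TGACGTCA, which contains TGACG, was present for 2.25% of all genes. Its share among ribosomal protein genes was not counted.

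The values of these genes differed by code as well as by group. RPL36, a protein of the large subunit, had 375, 238 and 521 CPM with beta-endorphin, against 1058, 316 and 750.2 CPM in Control. RPL29, also of the large subunit, had 738, 465 and 1041 CPM with beta-endorphin, against 2025, 659 and 1405 CPM in Control. RPL18 had 617, 432 and 835 CPM with beta-endorphin, against 1530 CPM, 554 CPM and 1172 CPM in Control. RPS15, of the small subunit, had 588, 412 and 753 CPM with beta-endorphin, against 1407, 505 and 1046 CPM in Control. In all 4 genes pair 2 was lowest in both groups, and Control 2 lay below beta-endorphin 3. The log2 fold change of RPL36 was -0.90 ± 0.47 (SE, edgeR adjusted p = 0.515). Ribosomal protein mRNA summed to 55323, 35780 and 76685 CPM in beta-endorphin libraries and 96261, 41373 and 95330 CPM in Control libraries. In the other 12 libraries it summed to 34185 to 91494 CPM, with a median of 51803. Naloxone libraries also had a lower median log2 level of this list than Control in each code, at -0.26, -0.87 and 0.69, against 0.92, -0.51 and 0.79. Morphine and metamorphine were below Control in the codes of pairs 1 and 3 but above it in that of pair 2. Ribosomal protein genes have many processed pseudogenes, so their counts are uncertain where reads could match a copy.

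**Figure D3:**
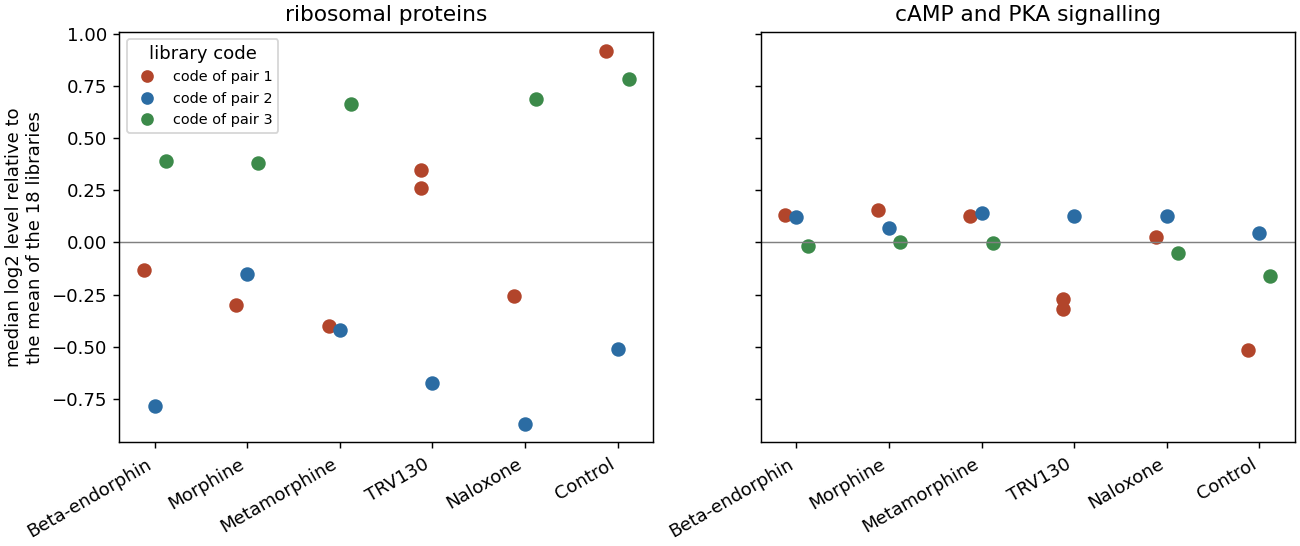
Median log2 level of the ribosomal protein list (left) and of the cAMP and PKA list (right) in each of the 18 libraries, relative to the mean of the 18, by treatment and library code. Ribosomal protein genes lie higher in the code of pair 3 than in that of pair 2 for each of the 5 groups that have both, and beta-endorphin lies below Control within each pair.

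Nuclear genes of the respiratory chain showed the same direction. Of 70 tested, 63 were lower and 7 higher with beta-endorphin, and 58 of the 70 were lower in all 3 pairs, beside 24.8% of all genes. The median was -0.54, with pair medians of -0.87, -0.21 and -0.38. No member had non-overlapping groups, beside 4.52% of all genes that lay lower without overlap. An unadjusted edgeR p under 0.05 was found for 3 of the 70, beside 9.46% of all genes. NDUFS7, a complex I subunit, had 41.0, 40.2 and 47.2 CPM with beta-endorphin, against 85.7, 47.0 and 63.1 CPM in Control. NDUFS8, a neighbour of it in complex I, had 64.0, 44.9 and 72.9 CPM with beta-endorphin, against 158, 56.6 and 105 CPM in Control. ATP5F1D, a subunit of ATP synthase, had 88.3, 66.3 and 84.2 CPM with beta-endorphin, against 199, 78.3 and 131 CPM in Control. Each was lower in every pair, and in each the groups overlapped at Control 2. DESeq2 with the library code called 7 of the 70, beside 2.36% of all genes. The mRNAs of the mitochondrial genome did not keep one direction. All 13 were lower in the fit, at a median of -0.61, but the pair medians were -1.23, -0.61 and 0.37, and 12 of the 13 were higher in pair 3. MT-CO2, a cytochrome c oxidase subunit, had 4652, 7596 and 6290.3 CPM with beta-endorphin, against 15698, 11940.5 and 5561 CPM in Control. MT-ND3 was the exception, with 806, 1121 and 1309.8 CPM with beta-endorphin, against 3035, 1815 and 1327 CPM in Control, and its groups did not overlap.

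Neuronal genes were more often higher. Of 37 tested, 25 were higher and 12 lower, with a median of 0.14 and pair medians of 0.31, 0.21 and 0.10. In all 3 pairs 14 of the 37 were higher, beside 22.8% of all genes. Their summed level was 9107, 7956 and 7683 CPM with beta-endorphin and 5890 CPM, 6529 CPM and 6912 CPM in Control, against 6050 to 8790.2 CPM in the other 12 libraries. CNTN1, contactin 1, an adhesion molecule of axons, had 11.1, 12.2 and 10.5 CPM with beta-endorphin, against 4.78, 6.99 and 6.83 CPM in Control. Every beta-endorphin library lay well above every Control library, with pair differences of 1.20, 0.80 and 0.61 and a log2 fold change of 0.86 ± 0.21 (SE, unadjusted p = 0.00072, edgeR adjusted p = 0.513). DCX, doublecortin, a microtubule protein of young neurons, had 179.5, 140.1 and 139 CPM with beta-endorphin, against 73.4, 102 and 95.2 CPM in Control, also without overlap. Choice by smallest p favours such genes. Of the 37 tested, 6 lay above Control without overlap, beside 6.06% of all genes, and 0 below it, beside 4.52%. MAP2, a microtubule protein of dendrites, had 224, 203 and 215 CPM with beta-endorphin, against 95.9, 147 and 196 CPM in Control, and pair 3 differed by 0.13. SYT1, the calcium sensor of synaptic vesicles, had 75.7, 94.7 and 95.7 CPM with beta-endorphin, against 49.3, 65.3 and 81.7 CPM in Control, with overlap. The direction was not shared by all neuronal markers: TUBB3, a neuron-specific tubulin, had 791, 451 and 579.5 CPM with beta-endorphin, against 869, 486 and 666 CPM in Control, lower in each pair. Of 29 noradrenergic genes 19 were higher and 10 lower, with a median of 0.13.

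Secreted peptides lay lower. Of 16 tested neuropeptide and granin genes, 14 were lower and 2 higher, with a median of -0.49, but the pair medians were -0.93, 0.02 and -0.23, so the list did not hold in pair 2, and the fitted median was -0.16 without Control 1. UCN, urocortin, had 8.31, 10.99 and 9.36 CPM with beta-endorphin, against 27.8, 14.5 and 11.03 CPM in Control. All 3 pairs were lower, and the groups met at the lowest Control library without overlapping. PCSK1N, which encodes an inhibitor of the prohormone convertase PC1/3, had 182, 175 and 201 CPM with beta-endorphin, against 470.1, 174 and 273 CPM in Control, with a difference of 0.02 in pair 2. Genes of the retinoic acid response, the agent all cells had received, split into 13 higher and 7 lower of 20, with a median of 0.10 that was -0.12 without Control 1. DHRS3, a retinaldehyde reductase induced by retinoic acid, had 116, 135 and 127 CPM with beta-endorphin, against 190.4, 159.7 and 152 CPM in Control, and BCL2, a survival gene, had 43.2, 31.6 and 31.0 CPM with beta-endorphin, against 22.5, 25.1 and 25.9 CPM in Control. Both kept their direction in every pair without overlap, which their choice by smallest p favours. Of the 20 tested genes, 2 lay above Control without overlap, beside 6.06% of all genes, and 2 below it, beside 4.52%. DESeq2 with the library code called 4 genes of this list, beside 2.36% of all genes. Heat shock and unfolded protein genes (11 higher, 19 lower of 30), glycolytic and hypoxia genes (13 and 13 of 26), sterol synthesis genes (11 and 11 of 22) and cell cycle genes (18 and 12 of 30) had medians of -0.06, 0.00, 0.01 and 0.08, whose signs changed with the setting.

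**Figure D4:**
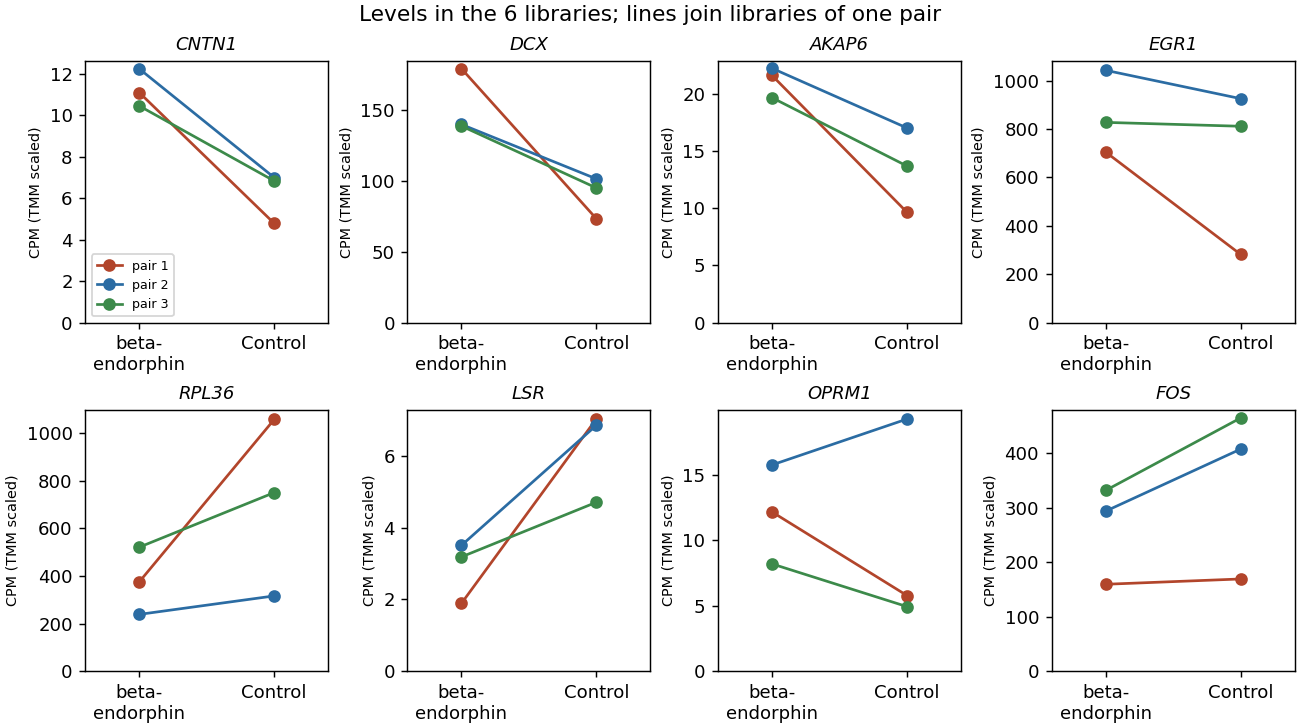
Levels of 8 genes in CPM in the 3 beta-endorphin libraries (left) and the 3 Control libraries (right) of each panel, with lines that join libraries of 1 pair and y axes that start at 0. CNTN1, DCX and AKAP6 slope down to Control in every pair, RPL36 and LSR slope up, and OPRM1 slopes both ways.

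What the one-direction genes shared most plainly was length and base composition, which the choice of libraries did not use. With the tested genes split into 5 classes of equal size by merged exon length, 45.4% of the longest class (6794 nt or more) were higher in all 3 pairs and 10.8% lower, with a median log2 fold change of 0.19. In the class from 956 to 2539 nt, 10.5% were higher and 37.1% lower, with a median of -0.26. By GC content, the lowest of 5 such classes (up to 41.4%) had 33.5% higher and 13.98% lower, and the highest (58.3% or more) had 9.58% higher and 41.0% lower, with a median of -0.29. Across 23231 genes, Spearman's rho between the pair difference and exonic length was 0.14, 0.23 and 0.14, and across 23215 genes with a GC value rho with GC was -0.26, -0.27 and -0.09. The 549 genes called by DESeq2 with the code showed the same split. Those lower had a median GC content of 60.3% and a median length of 2550 nt. Those higher had 43.0% and 9110.5 nt, beside 49.1% and 3368 nt for all tested genes. The 549 all averaged 10 CPM or more in the 6 libraries, which not all tested genes did. By chromosome, the median log2 fold change ran from -0.21 on chromosome 19, whose 929 genes with at least 10 CPM had a median GC of 59.3%, to 0.17 on chromosome 13, whose 182 genes had a median GC of 42.1%. When each difference was centred on the median of its class of length and GC, the pairs still had an r of 0.46, 0.55 and 0.31 in the order used above. Ribosomal protein genes then had a median of -0.49, respiratory chain genes -0.38, cAMP and PKA genes 0.15 and neuronal genes 0.18, while early response genes moved to 0.06.

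**Figure D5:**
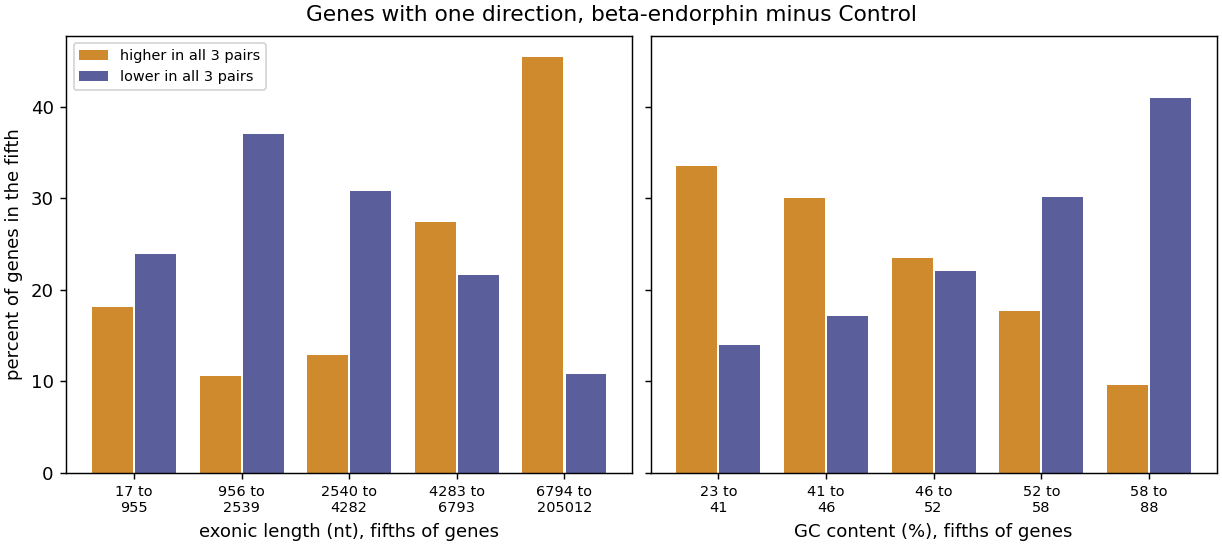
Percent of genes that were higher (orange) or lower (blue) with beta-endorphin in all 3 pairs, by 5 classes of exonic length in nt (left) and of GC content in percent (right). The share that was higher reaches 45.4% in the longest class, and the share that was lower reaches 41.0% in the class richest in GC.

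The single genes with the smallest unadjusted p, 8 in each direction, all had non-overlapping groups, which the ranking favours, and none passed adjustment (edgeR adjusted p = 0.513 for each). Among those that were higher, besides CNTN1, PSD3, which encodes an ARF6 exchange factor of synapses, had 26.3, 22.1 and 21.8 CPM with beta-endorphin, against 11.6, 14.8 and 14.3 CPM in Control. ITGA6, an integrin that binds laminin, had 3.02, 2.88 and 2.66 CPM with beta-endorphin, against 0.812, 1.28 and 1.73 CPM in Control. The other 5 were low-count noncoding features: the pseudogenes RPL7AP49 and WDR82P1, the U6 copy RNU6-146P, RF02164 and the antisense gene ENSG00000249772, whose counts ran from 4 to 47 in beta-endorphin libraries and from 0 to 14 in Control libraries. Counts without strand, and near-identical copies, make such features uncertain. Among those that were lower, LSR, a lipoprotein receptor and tricellular junction protein of epithelia, had 1.89, 3.51 and 3.19 CPM with beta-endorphin, against 7.04, 6.86 and 4.71 CPM in Control. Its pair differences of -1.86, -0.95 and -0.55 gave a log2 fold change of -1.12 ± 0.26 (SE). HSD17B14, a steroid dehydrogenase, had 9.55, 8.82 and 8.999 CPM with beta-endorphin, against 22.6, 13.9 and 14.7 CPM in Control. IFI27L1, a small mitochondrial membrane protein, had 8.004, 7.94 and 8.68 CPM with beta-endorphin, against 20.4, 11.996 and 11.7 CPM in Control. LPAR6, a lysophosphatidic acid receptor, had only 5, 8 and 4 counts with beta-endorphin, against 32, 25 and 11 counts in Control. ST6GALNAC2, a sialyltransferase, had 7, 5 and 6 counts with beta-endorphin, against 56, 21 and 14 counts in Control. The unnamed ENSG00000268230 described above, the pseudogene THA1P and ENSG00000226396 completed the list, and THA1P had 25, 17 and 10 counts with beta-endorphin, against 49, 43 and 31 in Control.

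Genes chosen for the largest smallest-pair difference, among genes averaging 10 CPM or more, were partly set by Control 1; their direction is fixed by the choice and is a description. SLC2A3P1, a glucose transporter pseudogene, had 1035, 1119 and 778 counts with beta-endorphin, against 11, 598 and 346 counts in Control. ENSG00000276965, ENSG00000232085 and ENSG00000250240 had 9, 7 and 21 counts in Control 1, while their other 5 libraries held at least 155 counts each. IGFBPL1, a secreted relative of IGF-binding proteins, had 85.1, 94.0 and 64.1 CPM with beta-endorphin, against 15.0, 55.0 and 41.9 CPM in Control. ZNF81, a zinc finger gene, had 15.4, 18.3 and 12.1 CPM with beta-endorphin, against 4.15, 11.6 and 6.88 CPM in Control. FBN1, fibrillin 1, had 44.3, 83.2 and 42.7 CPM with beta-endorphin, against 21.2, 54.1 and 28.1 CPM in Control, and NOMO2 had 30.5, 34.8 and 20.5 CPM, against 10.97, 22.5 and 9.60 CPM. Groups overlapped for both, and NOMO2 has near-identical copies. In the lower direction, HSD17B14 stood beside ADCK5, a kinase-like gene, which had 8.76, 10.9 and 8.68 CPM with beta-endorphin, against 24.7, 18.4 and 12.97 CPM in Control. TAMALIN, a scaffold for metabotropic glutamate receptors, was the most even across pairs, with 8.45, 8.19 and 7.43 CPM with beta-endorphin, against 13.2, 11.996 and 11.3 CPM in Control, and pair differences of -0.64, -0.55 and -0.60. C19orf81, TMEM256, NPIPB3, ENSG00000260257 and ENSG00000244380 were the other 5, with smallest pair differences between -0.55 and -0.89. Genes ranked first when the code was a term of the model included BVES, a cAMP-binding membrane protein, with 35.3, 39.8 and 40.2 CPM with beta-endorphin, against 20.4, 30.5 and 24.4 CPM in Control, and PAX5, with 20.2, 10.4 and 10.5 CPM, against 5.46, 7.35 and 6.75 CPM.

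The 4 genes that the study's title names, and which are therefore not independent evidence, were at or near 0 in beta-endorphin libraries. GARIN4 had 1, 2 and 1 counts with beta-endorphin, against 9, 25 and 13 counts in Control, and was the only one of the 4 with non-overlapping groups and one direction in every pair. TRIM56 had 1, 2 and 4 counts with beta-endorphin, against 103, 16 and 0 counts in Control. RASAL1 had 2, 4 and 2 counts with beta-endorphin, against 55, 12 and 1 counts in Control. CACNA1F had 0, 1 and 0 counts with beta-endorphin, against 119, 4 and 0 counts in Control, and did not pass the count filter. For these last 3, the high value was that of the library with 20888 reads in otherwise silent genes, and in pair 3 none of them was lower with beta-endorphin. The log2 fold change of GARIN4 was -3.62 ± 1.07 (SE, edgeR adjusted p = 0.513).

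Summed markers of several other cell types were highest in Control 1. Epithelial markers summed to 19.4, 25.6 and 15.0 CPM with beta-endorphin, against 46.5, 35.1 and 15.8 CPM in Control, and 12 of the 21 passed the count filter, all with a lower fitted value. EPCAM had 42, 60 and 49 counts with beta-endorphin, against 144, 112 and 66 counts in Control. Immune markers, 8 of 24 of which passed, summed to 41.2, 41.3 and 35.3 CPM with beta-endorphin, against 73.1, 44.8 and 39.7 CPM in Control. The defining immune gene PTPRC had 0, 1 and 0 counts with beta-endorphin and 1, 0 and 0 counts in Control. Of 21 epithelial markers, 8, 8 and 6 were at 0 in beta-endorphin libraries, against 0, 3 and 6 in Control libraries. Endothelial markers summed to 25.7, 34.9 and 27.2 CPM with beta-endorphin, against 64.9 CPM, 36.5 CPM and 30.9 CPM in Control, and hepatocyte markers to 1.403, 0.983 and 0.973 CPM, against 4.045, 2.05 and 0.829 CPM. Mesenchymal markers were not highest in Control 1, at 578, 860.2 and 607 CPM with beta-endorphin, against 550.1, 711 and 495 CPM in Control. Nor were Schwann and glial markers, at 48.8, 61.4 and 41.0 CPM with beta-endorphin, against 50.4, 53.7 and 32.0 CPM in Control. The part of these markers in the lower counts of LSR and of the title genes was not tested. A second departure was seen in Control 2. RN7SL1, the RNA of the signal recognition particle, had 388, 204 and 483 counts with beta-endorphin, against 261, 4461 and 518 counts in Control. MALAT1, an abundant nuclear RNA, had 118, 241 and 120.2 CPM with beta-endorphin, against 141, 1505 and 96.1 CPM in Control. The median of the 7 tested structured small RNAs was -2.43 in the fit, and -0.00, -3.96 and -0.73 in the pairs. That list summed to 40.4, 27.0 and 61.0 CPM with beta-endorphin, against 33.1, 572 and 57.7 CPM in Control. In the other 12 libraries it ran from 13.8 to 386 CPM, with a median of 54.2, so high values were not confined to Control 2.

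Against the mean of the other 4 ligands, which asks whether anything was particular to beta-endorphin, 0 of 23231 genes (0%) were called by edgeR, with a smallest adjusted p of 1.00. Only 83 genes (0.357%) had an unadjusted p under 0.05, and DESeq2 also called 0. Among the genes with the smallest p, ECEL1P2 had 0, 9 and 52 counts in beta-endorphin libraries, and SOSTDC1 had 2, 0 and 1. Others were NSFP1, EEF1A1P23, KCTD14 and RF02164 in the higher direction and THA1P, RPL7AP43 and CHL1 in the lower. Against the other ligands, ribosomal protein genes had a median of -0.11, respiratory chain genes -0.07, cAMP and PKA genes 0.07, neuronal genes 0.01, early response genes 0.10 and mitochondrially encoded mRNAs -0.34. Both sets of values use the same beta-endorphin libraries.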

How the data were processed

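Raw counts per gene were deposited by the authors. Extraction used TRIzol followed by DNase I, and the libraries were unstranded, per the labels' protocols, so sense and antisense reads cannot be told apart. The submitters' processing notes name HISAT2, FastQC, featureCounts and DESeq2 and the build GRCh38 (hg38). Versions, settings and annotation were not given in the sources used here. All 58735 IDs matched GENCODE 29, which gave exon lengths, GC content and symbols for 42465. Columns were matched to samples by name and none was left unused. Counts were filtered with filterByExpr (minimum count 10), scaled by TMM and tested with edgeR 4.0.16 (robust quasi-likelihood, R 4.3.3) over all 18 libraries, 1 mean per group, two-sided, with Benjamini-Hochberg adjustment at 0.05. Pair differences are log2 CPM with a prior count of 2. DESeq2 1.42.0, RLE scaling, no filter, code or replicate terms, and each library left out were alternatives. The edgeR fits with and without the code term, and DESeq2 without it, were tested on simulated data. DESeq2 with the code term was not. The libraries, gene lists and rules were chosen with earlier results of these data known. Named genes are the 8 with the smallest p and the 8 with the largest smallest-pair difference per direction, the 8 with the smallest p with a code term, the 5 with the smallest p against the other ligands, opioid receptor, title and main early response genes, and up to 4 per list by p; some that met the rule are not reported here.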

Additional observations from a re-analysis of the deposited data

How the results depend on the processing

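For beta-endorphin against Control, edgeR called 0 genes under every setting: RLE scaling, no filter, the 6 libraries alone, 3 block fits, and each library left out (0 to 0). Against the other ligands every setting run also gave 0. For Control, DESeq2 called 1, DESeq2 with the library code as a replicate block called 549, and the same fit without Control 1 called 8 (chosen after seeing the data). With the library code as a replicate block edgeR had 6451 genes at an unadjusted p under 0.05, against 2198 without it, and a smallest adjusted p of 0.134; without Control 1 that fit had 1627 and 0.362. The deviations of same-code libraries correlated at 0.0996, 0.67 and 0.59, and each library correlated best with its own code, so the pairing is a hint from the data only. One-direction counts at a mean of at least 10 CPM were 3451 higher and 3476 lower; leaving out a pair gave 6537 to 7828 higher and 7328 to 8371 lower. Centring by length and GC, chosen after seeing the data, moved the early response median to 0.063, against -0.21; leaving out a library gave -0.28 (without Control 1) to -0.068 (without Control 3). Leaving out a Control library changed the sign of 4 of 71 named genes. OPRM1 ranged from -0.050 (without Control 3) to 1.17 (without Control 2), and was -0.018 without Control 1. OPRD1 ranged from -0.57 to 0.61 and NR4A1 from -0.69 to 0.18, both highest without Control 2. EGR1 ranged from -0.032 (without Control 1) to 0.65 (without Control 2). Of 510 list medians under alternatives, 46 had the other sign, in 15 of 32 lists. Ribosomal protein genes (-0.98 to -0.28), respiratory chain genes (-0.86 to -0.24), mitochondrially encoded mRNAs (-0.96 to -0.35), cAMP and PKA genes (0.14 to 0.35), neuronal genes (0.074 to 0.21), MAP kinase feedback genes (0.033 to 0.36) and G protein subunits (0.040 to 0.39) kept theirs. The cause of these moves was not tested. With 3 libraries a group, the spread between libraries limits what can be called.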
